A study of Mus musculus with 3 samples.

Results

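Of the 14687 homocysteinylation peaks listed for NE4C cells, 2010 lay more than 200 kb from the nearest end of any protein-coding gene, and these are described here as far peaks. They comprised 1166 of the 7387 peaks of the antibody to H3K79Hcy and 844 of the 7300 peaks of the antibody to homocysteinylated lysine in general (KHcy). A peak was chosen by its position only, as the distance between its nearer edge and the 22367 protein-coding genes of GENCODE M1 in the mouse genome build mm9, with chromosome M left out (2 peaks in each list). No read count or score entered the choice. NE4C is an established line of mouse neural stem cells, cultured here in Eagle MEM on poly-L-lysine. The labels name no genotype and no treatment with homocysteine thiolactone (HTL). The study also compared NE4C cells with and without HTL. Chromatin cross-linked with formaldehyde was immunoprecipitated with 1 of 3 antibodies and sequenced, with 1 library per antibody. By the study's methods a kit for enzymatic preparation of chromatin was used. The third library, H3K4me3 (19339 peaks), is used beside the others. Without replicates no test between libraries was made, and the intervals given below cover counting error only.

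Homocysteinylation is the addition of homocysteine, through its reactive thiolactone, to the side chain of lysine. H3K79 lies in the globular core of histone H3 and not in its tail, where H3K4 lies. H3K4me3 marks the starts of active genes and of CpG-rich promoters, so that peaks of this mark far from any gene serve here as a comparison. Gene deserts are long stretches without protein-coding genes, often beside genes of development and of neuronal adhesion. They are poor in G and C, replicate late for the most part and hold, in places, enhancers that act over long distances.

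Each far peak was placed in a gene desert, defined as the stretch between neighbouring protein-coding genes (or between a gene and the end of a chromosome) that holds positions more than 200 kb from every gene. There were 845 such deserts, of which 828 contained sequence outside assembly gaps, and the median distance from gene to gene was 749 kb. The positions more than 200 kb from genes added up to 478.7 Mb, or 18.7% of the 2558.5 Mb of the genome outside gaps.

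The sequences of the far peaks on which the results turn are shown first, 200 bases from the middle of each peak (the whole peak where it spans 1 window of 200 bp), read from the plus strand of NCBIM37, which is the same build as mm9. Capitals mark bases covered by a 31-base word that occurs more than once in the genome on either strand. The first 2 hold the largest enrichments that the H3K79Hcy and KHcy lists shared. The next is the strongest far peak of KHcy that H3K79Hcy lacked, the one after it lies between Il7 and Stmn2 and was found in all 3 lists, and the last belongs to the H3K79Hcy peak farthest from any gene, as an example of a weak and isolated far peak.
chr17:39982701-39982900, plus strand: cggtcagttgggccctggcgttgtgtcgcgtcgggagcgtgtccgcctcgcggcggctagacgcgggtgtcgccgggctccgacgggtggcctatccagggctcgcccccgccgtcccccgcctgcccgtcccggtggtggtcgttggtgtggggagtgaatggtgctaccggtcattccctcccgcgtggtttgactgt
chr3:5860601-5860800, plus strand: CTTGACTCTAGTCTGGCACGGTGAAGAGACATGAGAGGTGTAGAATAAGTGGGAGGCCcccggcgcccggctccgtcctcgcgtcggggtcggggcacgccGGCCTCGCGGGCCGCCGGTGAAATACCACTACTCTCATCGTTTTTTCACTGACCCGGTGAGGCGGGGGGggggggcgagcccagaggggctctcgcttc
chr17:4626301-4626500, plus strand: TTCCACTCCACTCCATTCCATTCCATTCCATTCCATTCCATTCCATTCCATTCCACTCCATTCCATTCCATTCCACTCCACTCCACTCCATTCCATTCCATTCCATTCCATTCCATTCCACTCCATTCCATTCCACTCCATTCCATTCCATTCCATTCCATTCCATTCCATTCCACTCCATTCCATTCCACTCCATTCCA
chr3:8245801-8246000, plus strand: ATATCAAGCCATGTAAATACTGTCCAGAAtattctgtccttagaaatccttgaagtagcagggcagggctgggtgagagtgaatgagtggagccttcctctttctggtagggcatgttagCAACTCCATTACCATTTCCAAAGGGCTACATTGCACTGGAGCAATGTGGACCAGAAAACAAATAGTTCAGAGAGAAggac
chr1:104559001-104559200, plus strand: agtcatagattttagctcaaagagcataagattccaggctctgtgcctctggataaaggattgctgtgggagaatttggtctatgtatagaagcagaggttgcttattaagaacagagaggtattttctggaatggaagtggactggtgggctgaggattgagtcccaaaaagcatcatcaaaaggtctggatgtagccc

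The first of these sequences had a GC content of 71.5% and contained 0 bases in repeated words. The one after it had a GC content of 67% and 127 of its 200 bases in repeated words. All 200 bases of the sequence near Arid1b were in repeated words, and they consisted of the pentamer TTCCA and close variants of it. The sequence from the farthest peak, with a GC content of 43.5%, had no repeated word.

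Over the whole genome, far peaks were less dense than peaks elsewhere in all 3 libraries, and the fall with distance was smallest for H3K79Hcy. Of the nuclear peaks, 15.8% of H3K79Hcy (95% Wilson interval 15.0 to 16.6%), 11.6% of KHcy (10.9 to 12.3%) and 9.34% of H3K4me3 (8.94 to 9.76%) were far from genes, compared with 18.7% of the genome. Had the peaks of each chromosome been spread evenly over its bases, the shares would have been 17.7%, 17.5% and 17.1%. H3K79Hcy had 2.44 far peaks per Mb of desert and 2.99 peaks per Mb elsewhere, a ratio of 0.815. For KHcy the densities were 1.76 and 3.10 per Mb (ratio 0.568), and for H3K4me3 they were 3.77 and 8.43 per Mb (ratio 0.448).

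The distance itself separated the antibodies further. H3K79Hcy peaks numbered 3.08 per Mb inside genes, 2.80 within 50 kb of genes, 3.06 at 50 to 100 kb and 3.08 at 100 to 200 kb. Their density was 2.83 per Mb at 200 to 300 kb, no lower than within 50 kb of genes, and reached 1.99 per Mb beyond 1000 kb. KHcy peaks numbered 3.57 per Mb inside genes, 2.64 within 50 kb, 2.95 at 50 to 100 kb and 2.53 at 100 to 200 kb. They fell to 2.09 per Mb at 200 to 300 kb and 1.31 per Mb beyond 1000 kb. H3K4me3 peaks were densest within 50 kb of genes (9.62 per Mb) and thinned to 5.39 per Mb at 200 to 300 kb and 1.29 per Mb beyond 1000 kb. In that last class, 105 H3K79Hcy, 69 KHcy and 68 H3K4me3 peaks remained, so the H3K4me3 list, by far the longest, was no longer than the others there.

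**Figure D1:**
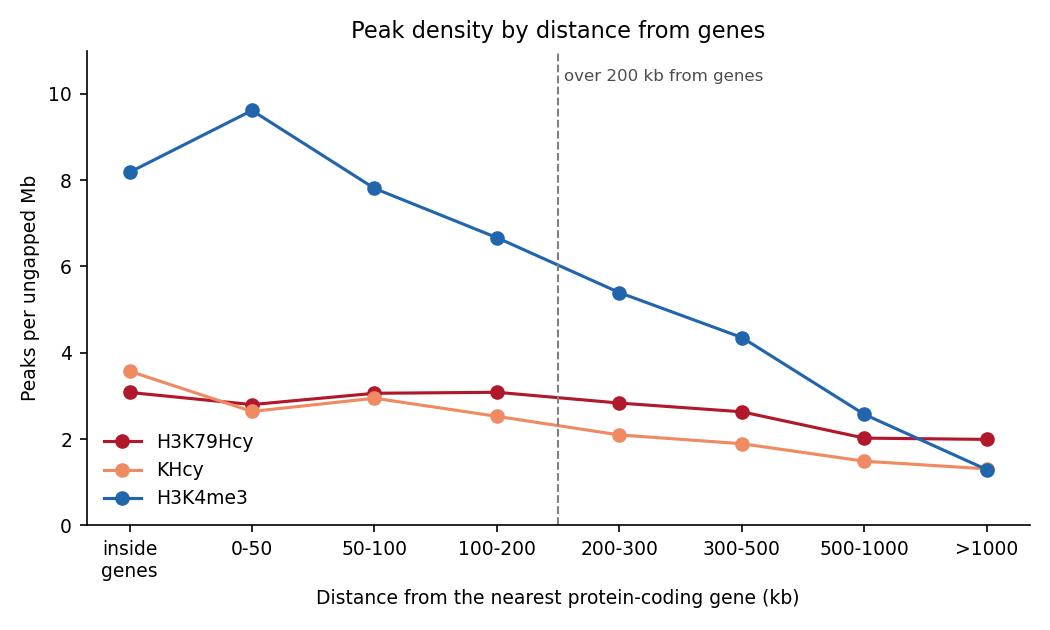
Peaks per Mb of sequence outside assembly gaps (vertical axis) by distance from the nearest protein-coding gene in kb (horizontal axis), 1 line per library. H3K79Hcy declined from 3.08 to 1.99 per Mb between genes and the farthest class, while H3K4me3 declined from 8.18 to 1.29 per Mb.

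The farthest H3K79Hcy peak, chr1:104558401-104559800, was 2105 kb from a gene, between Cntnap5b, a contactin-associated cell adhesion protein, and Cdh20, a cadherin. It held 25 reads over 1400 bp, 2.24 times the background of the library. The farthest KHcy peak, chr1:104294401-104296000, lay in the same desert, 1912 kb from Cntnap5b, with 29 reads over 1600 bp and a fold of 2.44. Neither overlapped a peak of another list. The farthest H3K4me3 peak, chr8:52684601-52686400, was 1911 kb from Aga, with 29 reads and a fold of 2.33. At the other end, the peaks next to the limit of 200 kb were of various sizes. The H3K79Hcy peaks just inside it, at 200.2 and 200.3 kb, held 16 and 26 reads, and those just outside it, at 199.7 and 199.6 kb, held 50 and 22 reads. For KHcy the neighbours of the limit held 32 and 25 reads inside and 41 and 38 reads outside.

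Far homocysteinylation peaks were gathered in a minority of the deserts. H3K79Hcy far peaks occurred in 260 deserts and KHcy far peaks in 231, and 194 deserts contained both, so that 297 deserts (35.1%) contained at least 1. A desert with H3K79Hcy had a median of 2 far peaks (quartiles 1 and 6) and at most 26, and a desert with KHcy had a median of 2 (quartiles 1 and 5) and at most 24. The 66 deserts with 10 or more of both marks together held 1266 far peaks (63.0%) in 18.6% of the desert sequence. In 75 deserts there was exactly 1. The deserts holding both marks accounted for 1078 of the H3K79Hcy far peaks (92.5%) and 791 of the KHcy far peaks (93.7%).

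The deserts that filled were the ones whose surroundings were filled too. Within 1 Mb of a desert with a far homocysteinylation peak lay a median of 9 H3K79Hcy, 8 KHcy and 10 H3K4me3 peaks nearer to genes, whereas around the 531 deserts without one the medians were 0, 0 and 1. No near H3K79Hcy peak lay within this distance of 321 empty deserts (60.5%) but of only 23 filled ones (7.74%). Filled deserts were also longer, with a median of 905 kb from gene to gene against 664 kb. Across the 828 deserts the far peaks per Mb of H3K79Hcy and KHcy had a Spearman's rho of 0.718, compared with 0.455 between H3K79Hcy and H3K4me3 and 0.458 between KHcy and H3K4me3. The 531 empty deserts are tied in these values, with no far peak of either homocysteinylation mark, and no rho is given for the filled deserts alone. Far peaks per Mb and the number of near peaks of the same library within 1 Mb of the desert had a rho of 0.639 for H3K79Hcy, 0.621 for KHcy and 0.534 for H3K4me3. The near peaks counted here include those in the outer 200 kb of the desert itself. All rho values are descriptions across deserts of single libraries, and the points share the cells, the genome and its chromosomes.

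Chromosomes differed widely. Chromosomes 1 to 3 held 551 far H3K79Hcy peaks (47.3%) and 409 far KHcy peaks (48.5%), compared with 36.8% and 36.1% of all nuclear peaks of these lists. The density of far H3K79Hcy peaks was 6.12 per Mb of desert on chromosome 1, 5.78 on chromosome 9 and 5.66 on chromosome 2, but 0.0728 on chromosome 14, and there were no far homocysteinylation peaks on chromosomes 7, 18 and X. Near peaks were also few on these chromosomes, with 58, 9 and 17 H3K79Hcy peaks in all. On chromosome 16, 13 of 25 peaks for H3K79Hcy and 8 of 18 for KHcy were far from genes, and 12 and 7 of them, together with 9 of 11 far H3K4me3 peaks, lay in the first 4 Mb, ahead of the odorant receptor gene Olfr161.

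The desert with the most far homocysteinylation peaks lay on chromosome 1 between the predicted genes Gm17684 and Gm9898 (chr1:28912719-30775398), with 25 H3K79Hcy, 24 KHcy and 9 H3K4me3 far peaks. Its H3K79Hcy peaks held 14 to 40 reads each, its KHcy peaks 22 to 53 reads, and 3 of the H3K79Hcy peaks overlapped a KHcy peak. The neighbouring desert from Gm11161 to Gm597 (chr1:27286772-28832988) had the largest number of H3K79Hcy far peaks, 26, beside 16 KHcy and 6 H3K4me3 peaks. Its H3K79Hcy density was 22.7 peaks per Mb of the sequence more than 200 kb from genes. H3K4me3 far peaks were the fewest in both deserts.

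On chromosome 2, the desert between Zeb2, a zinc finger repressor of neural crest and cortical development, and the activin receptor gene Acvr2a (chr2:44972916-48669628) held 18 H3K79Hcy, 19 KHcy and 3 H3K4me3 far peaks. The desert between Celf2, an RNA-binding splicing regulator, and the transcription factor gene Gata3 (chr2:7002349-9778704) held 20, 17 and 8, and none of its H3K79Hcy peaks overlapped a KHcy or an H3K4me3 peak. Between Pcmtd1 and the syntrophin gene Sntg1 (chr1:7163708-8351555) the numbers were 14, 20 and 22, in the shortest of the named deserts with many homocysteinylation peaks, and KHcy reached 25.4 peaks per Mb there. Its KHcy peaks covered 5.08% of the sequence more than 200 kb from genes.

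Igfbp7, which encodes an insulin-like growth factor binding protein, and Lphn3, an adhesion receptor of synapses, bound a desert of 3.61 Mb (chr5:77837071-81449162) that combined 25 H3K79Hcy and 12 KHcy with 59 H3K4me3 far peaks. Here 3 H3K79Hcy and 2 KHcy peaks overlapped H3K4me3. The longest desert by sequence, between Celf4 and Pik3c3 on chromosome 18, held 4.12 Mb of sequence more than 200 kb from genes and no far peak of any library.

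Some deserts, chosen after their values were seen, set the marks apart. Between the teneurin gene Odz2 and Mat2b, a regulatory subunit of the enzyme that makes S-adenosylmethionine from methionine (chr11:37049467-40492815), 17 H3K79Hcy and 14 KHcy far peaks stood beside 0 H3K4me3 peaks. Conversely, 3 deserts were filled by H3K4me3: Gm4868 to Tmem132c (chr5:126329111-127722177) with 208 H3K4me3, 1 H3K79Hcy and 2 KHcy far peaks, Tbc1d22a to Fam19a5 (chr15:86328930-87374903) with 121, 0 and 0, and Med13l to the T-box gene Tbx3 (chr5:119215445-120120677) with 112, 1 and 0. H3K4me3 peaks covered 71.9%, 73.4% and 76.3% of the sequence of these deserts more than 200 kb from genes, whereas the median over 222 deserts with H3K4me3 was 0.793%. The 3 deserts together held 441 of the 1806 far H3K4me3 peaks (24.4%), with a median width of 3000 bp against 1800 bp for the others, but only 4 of the 2010 far homocysteinylation peaks. They also held the 3 widest far H3K4me3 peaks, of 19600 and 15400 bp between Tbc1d22a and Fam19a5 and of 14400 bp between Gm4868 and Tmem132c. Homocysteinylation peaks never covered a desert in this way: over deserts with more than 0.1 Mb of such sequence, the largest share was 7.89% for H3K79Hcy and 13.9% for KHcy.

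**Figure D2:**
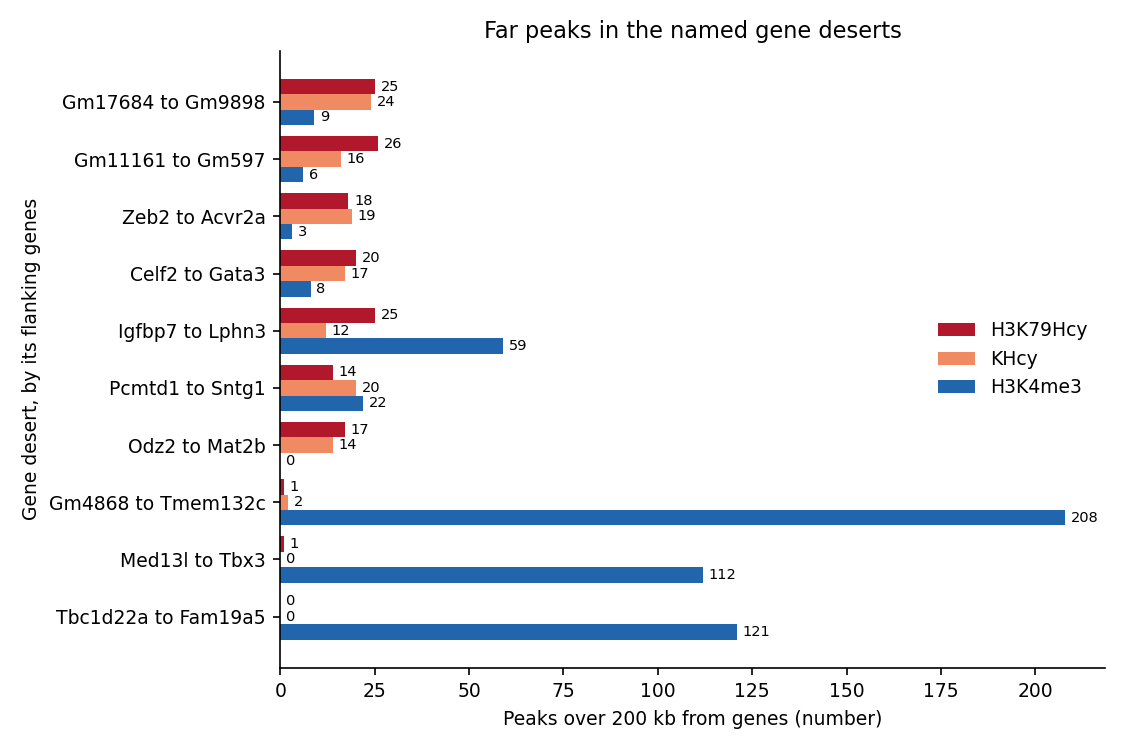
Number of far peaks (horizontal axis) of each library in 10 gene deserts named by their flanking genes (vertical axis); the lowest 4 were chosen after their values were seen. H3K79Hcy ran from 0 to 26 and KHcy from 0 to 24, while H3K4me3 ran from 0 between Odz2 and Mat2b to 208 between Gm4868 and Tmem132c.

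**Figure D3:**
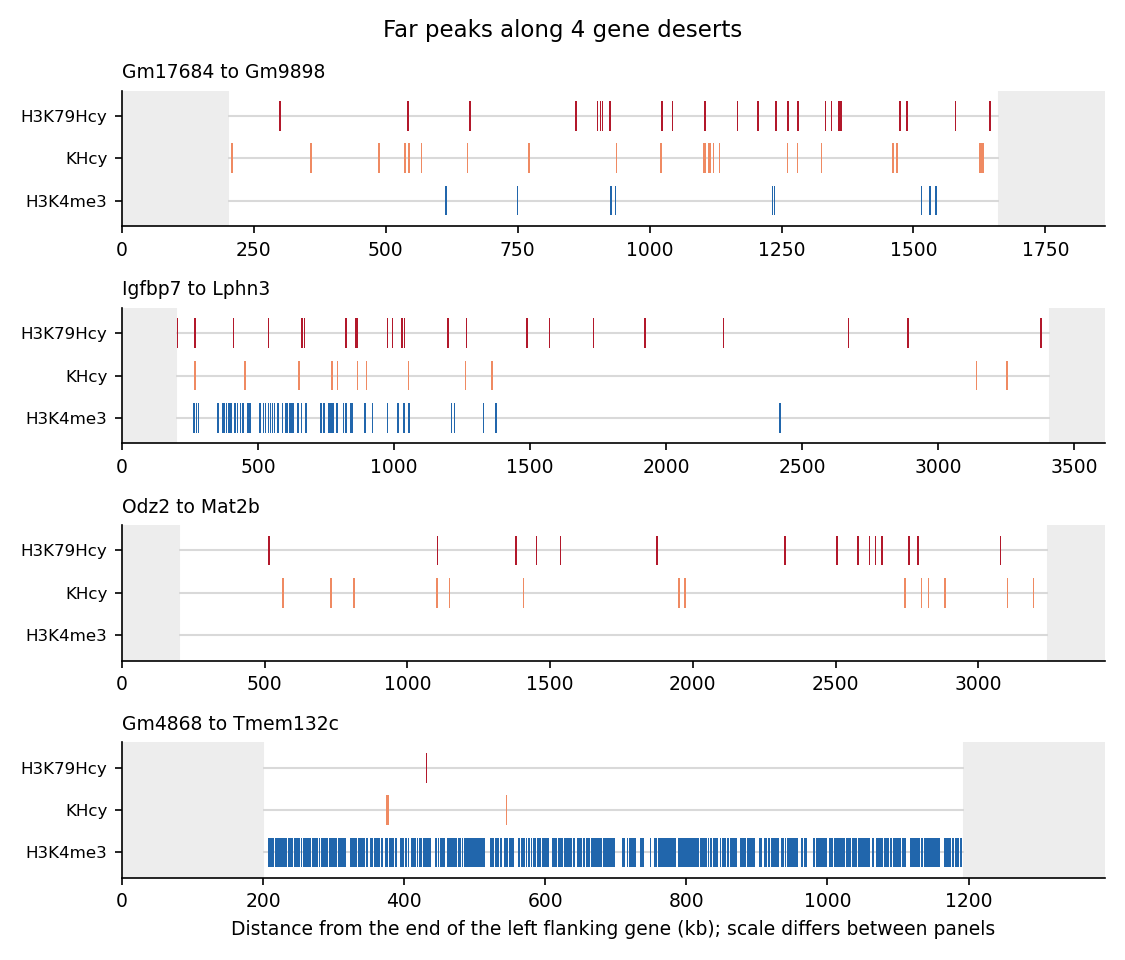
Positions of far peaks of each library along 4 deserts, as distance in kb from the left flanking gene; the grey ends are within 200 kb of a gene, and peaks too narrow to see are drawn at a fixed minimum width. H3K4me3 peaks cover 71.9% of the sequence more than 200 kb from genes ahead of Tmem132c and 3.78% of it after Igfbp7. In the desert after Igfbp7, most peaks of each of the 3 libraries lie on the left. Over all deserts, 20.2% of far H3K79Hcy and 19.5% of far KHcy peaks had another of the same list within 10 kb, against 66.1% for H3K4me3.

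In all, 133 deserts held far peaks of all 3 libraries, 124 held homocysteinylation without H3K4me3, 68 held H3K4me3 alone and 480 held none. Of the far H3K79Hcy peaks, 293 (25.1%) were in deserts without any far H3K4me3 peak, as were 195 of the far KHcy peaks (23.1%). Most far H3K4me3 peaks (1339, 74.1%) were in deserts that also held homocysteinylation.

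The genes beside the filled deserts included many neuronal adhesion and receptor genes, as did those of deserts in general. Among 547 flanking gene symbols of deserts with a far homocysteinylation peak, 17 belonged to a list of synaptic adhesion genes (3.11%, against 1.47% of 955 symbols flanking empty deserts and 0.283% of all 22225 symbols). The desert or deserts beside Cntnap5a held 23 H3K79Hcy and 12 KHcy far peaks, those beside the contactin gene Cntn6 held 20 and 13, those beside Lrrc4c, which encodes a netrin-G ligand, held 19 and 10, and those beside Odz2 held 17 and 14. Cntn6, Odz2, Cntn4 and Negr1 bordered far peaks of homocysteinylation but no far H3K4me3 peak.

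Cadherins and protocadherins made up 11 of the flanking symbols (2.01%, against 1.47% beside empty deserts and 0.288% of all). Cdh9 bordered 19 H3K79Hcy and 8 KHcy far peaks, Cdh6 bordered 18 and 6, and Pcdh7 bordered 16 and 13. Axon guidance genes numbered 9 (1.65%, against 0.942% and 0.319%), led by the repellent ligand gene Slit2 and the ephrin receptor gene Epha5, each beside 5 H3K79Hcy far peaks. There were 8 glutamate and GABA receptor genes (1.46%, against 0.733% and 0.207%), including the metabotropic receptor gene Grm7 (26 H3K79Hcy and 16 KHcy far peaks) and the kainate receptor gene Grik2 (22 and 10). Developmental regulators numbered 8 (1.46%, against 1.78% and 0.279%), with Zeb2 and Sox5 (11 and 8) bordering the most, and potassium channel genes numbered 4 (0.731%, against 1.36% and 0.423%). Of the odorant and vomeronasal receptor genes, which form 6.48% of all symbols, only Olfr161 flanked a filled desert. Genes beside long deserts are a small and unusual part of all genes, so the fitting background is the deserts without homocysteinylation; no test of these shares was made.

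Genes flanking filled deserts more often carried homocysteinylation within the gene as well. An H3K79Hcy peak overlapped 155 of 547 such genes (28.3%), compared with 44 of 907 genes that flank only empty deserts (4.85%) and 7.80% of all protein-coding genes. For KHcy the shares were 28.2%, 4.52% and 9.25%, and for H3K4me3 34.0%, 9.37% and 19.7%. The median gene lengths of the groups were 60.9, 29.5 and 15.4 kb, and the part of length in these shares was not tested.

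Far peaks resembled near peaks in width and were slightly weaker. The median width was 1200 bp for far and for near H3K79Hcy peaks (quartiles 800 and 1400 bp in both) and 2000 bp for far and near KHcy peaks (quartiles 1600 and 2400 bp in both). The median reads per far peak were 23 for H3K79Hcy (quartiles 20 and 26) and 32 for KHcy (28 and 36), and near peaks had the same medians. Far H3K79Hcy peaks had a median of 4.2 reads per 200 bp (95% interval of the median 4.17 to 4.2) against 4.33 (4.29 to 4.40) in near peaks. Far KHcy peaks had 3.30 (3.25 to 3.33) against 3.36 (3.33 to 3.38). Divided by the background of the library, which was 1.59 reads per 200 bp for H3K79Hcy and 1.49 for KHcy, the medians of far peaks were 2.64-fold and 2.22-fold, compared with 2.72-fold and 2.26-fold in near peaks.

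The difference was larger in the upper tail. Only 14 far H3K79Hcy peaks exceeded 5-fold (1.2%, 0.717 to 2.01%, against 2.99% of near and 2.71% of all peaks of the library), and 8 far KHcy peaks did (0.948%, 0.481 to 1.86%, against 1.86% of near and 1.75% of all). At 3-fold, the shares were 23.5% against 29.3% for H3K79Hcy and 5.57% against 9.19% for KHcy. Far peaks wider than 3000 bp numbered 1 for H3K79Hcy (0.0858%, near 0.997%) and 40 for KHcy (4.74%, near 6.88%). After the peak on chromosome 17 described below, the widest far H3K79Hcy peaks spanned 3000 bp: chr6:143499601-143502600, between Etnk1 and Sox5, with 50 reads (2.09-fold), and chr16:3241601-3244600 near Olfr161. The widest far KHcy peak, chr1:117274601-117281000, lay 300.3 kb from Cntnap5a and spanned 6400 bp with 134 reads (2.82-fold), and it overlapped a peak of both other lists. Another, chr9:17381801-17387800, between Gm5611 and Chordc1, spanned 6000 bp with 86 reads (1.93-fold) and overlapped neither. With a stricter score, set at the lowest score of the list plus the natural log of 100, 27.8% of the far H3K79Hcy peaks remained (31% of all) and 33.2% of the far KHcy peaks (41% of all). Far H3K4me3 peaks were wider than near ones, with a median width of 2000 bp against 1800 bp near genes and a median of 3.60 against 3.57 reads per 200 bp. Outside the 3 deserts filled by H3K4me3, the median width of its far peaks was 1800 bp.

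**Figure D4:**
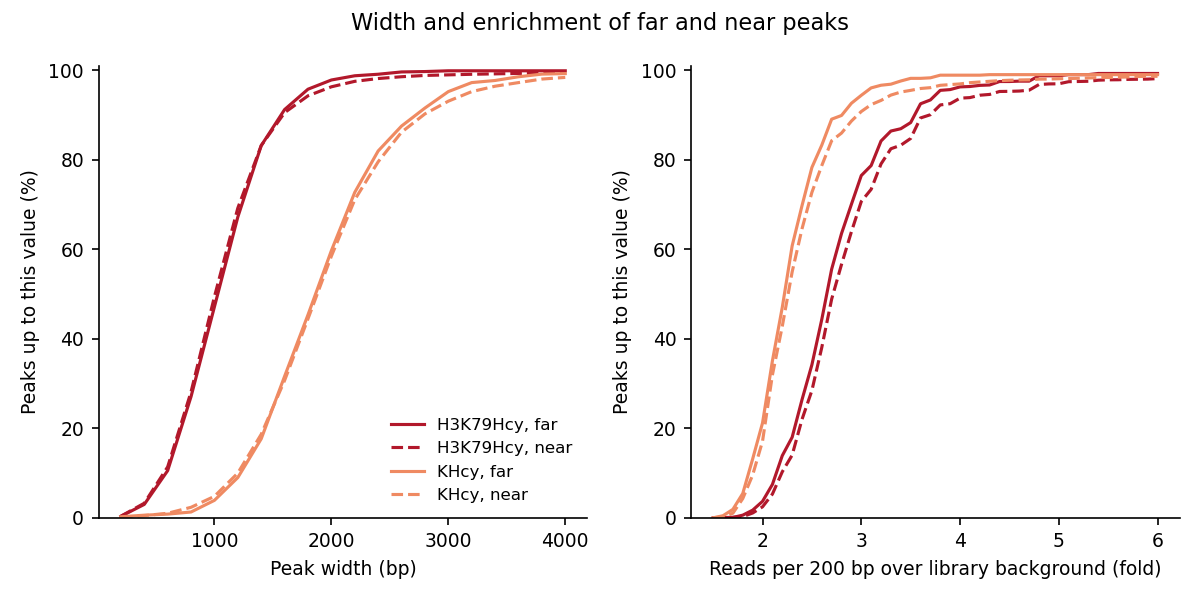
Share of peaks up to a given width in bp (left) and up to a given fold of reads per 200 bp over the library background (right), for far (solid) and near (dashed) peaks. The width curves of far and near peaks almost coincide, with medians of 1200 bp for H3K79Hcy and 2000 bp for KHcy, and the far fold curves lie slightly to the left.

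Far homocysteinylation peaks were poorer in G, C and CpG than near ones. The median GC content was 37.3% in far H3K79Hcy peaks (near 41.0%) and 37.4% in far KHcy peaks (near 41.4%), while far H3K4me3 peaks had a median of 42.5%. Far H3K79Hcy peaks had a median of 4 CpG per kb (near 6.25) and far KHcy peaks 3.89 (near 7), against 6.67 in far H3K4me3 peaks. Pooled over all its bases, the desert sequence had a GC content of 38.5% and 5.57 CpG per kb, and the rest of the genome had 8.98 CpG per kb. Medians over peaks and pooled values are unlike measures, so they do not place the peaks above or below the deserts. The part of GC content in the number of peaks was not tested.

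Few far peaks were repetitive. Repeated words, as marked above by capitals, made up more than 50% of the words in 6 far H3K79Hcy peaks (0.515%, near 3.86%, all 3.33%) and in 6 far KHcy peaks (0.711%, near 2.77%, all 2.53%). No repeated word at all was found in 524 far H3K79Hcy peaks (44.9%) and 220 far KHcy peaks (26.1%). A run of 12 CA units on either strand was present in 5.40% of the far H3K79Hcy peaks and 11.4% of the far KHcy peaks, compared with 9.02% of 398457 desert tiles of 1200 bp. Since KHcy peaks are wider than these tiles, the shares are not for equal lengths. At least 5 TTCCA units in a row on either strand were found in 2 far KHcy peaks, in 0 far H3K79Hcy peaks and in 9 tiles.

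The far peak of largest enrichment was the same in all 3 lists, chr17:39979801-39985800, between Gm20516 and Pgk2 and 358 kb from the latter, the testis form of phosphoglycerate kinase. This 6000 bp peak held 939 reads in H3K79Hcy, 1110 in KHcy and 1588 in H3K4me3, or 19.7-fold, 24.9-fold and 38.3-fold over background. It had identical edges in the 3 lists and a GC content of 64%. The only annotated feature it overlapped was the pseudogene AY036118, and the mm9 assembly is known to hold a copy of the ribosomal RNA precursor there. In the cell this gene is repeated in tandem on several chromosomes, whereas the median word of the peak occurs 1 time in the assembly.

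The next was a single window. At chr3:5860601-5860800, between Pxmp3 and 1700008P02Rik, 24 reads were counted for H3K79Hcy (15.1-fold) and 29 for KHcy (19.5-fold), and an H3K4me3 peak of 600 bp with the same right edge held 35 reads (8.45-fold). Its GC content of 67% was the highest of any far peak in the homocysteinylation lists.

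At chr3:8245201-8246600, between the cytokine gene Il7 and Stmn2, which encodes a neuronal regulator of microtubules, H3K79Hcy held 89 reads (7.98-fold) and H3K4me3 157 reads (16.2-fold), and the KHcy peak reached 200 bp further with 93 reads (7.82-fold). A peak between the tenascin gene Tnc and Pappa (chr4:64158801-64159200) held 24 reads in H3K79Hcy (7.54-fold) and 21 in H3K4me3 (7.60-fold), and the KHcy peak there held 28 (6.28-fold). The peak of TTCCA repeats at chr17:4626201-4626600, 368 kb from the chromatin remodelling gene Arid1b, was the exception: KHcy held 53 reads (17.8-fold) and no peak was listed for the other antibodies. Of the 8 far KHcy peaks over 5-fold it was the only one that overlapped neither other list, as the remaining 7 overlapped both. Of the 14 such H3K79Hcy peaks, 5 overlapped KHcy and 6 overlapped H3K4me3. The 8 that overlapped neither held 12 to 17 reads in 1 or 2 windows each.

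Taken over all far peaks, these places included, overlap between antibodies was less frequent than among near peaks. Far H3K79Hcy peaks covered 1.35 Mb and far KHcy peaks 1.71 Mb of the 478.7 Mb of desert sequence. The overlap that position alone would give was not computed, so the shares below are compared with those of near peaks only. An overlap of at least 1 bp with a KHcy peak was found for 76 far H3K79Hcy peaks (6.52%, 5.24 to 8.08%), compared with 15.2% of near peaks and 13.9% of all peaks of the library. With H3K4me3, 77 far H3K79Hcy peaks overlapped (6.60%, 5.32 to 8.18%), against 17.1% of near and 15.4% of all peaks. Of the far KHcy peaks, 68 overlapped H3K79Hcy (8.06%, 6.41 to 10.1%, against 13.6% of near and 12.9% of all) and 62 overlapped H3K4me3 (7.35%, 5.77 to 9.31%, against 17.7% of near and 16.5% of all). In each of these 4 pairs the far interval lay below the near one (14.4 to 16.1%, 16.1 to 18%, 12.7 to 14.4% and 16.8 to 18.7%, in the same order). Near overlap was thus 2.34, 2.58, 1.68 and 2.41 times the far overlap. The far stretches also held fewer peaks per Mb of every library, and the part of this density in the lower overlap was not tested.

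The order held within classes of width. Among H3K79Hcy peaks of up to 1000 bp, 4.91% of 550 far and 13.3% of 3074 near peaks overlapped KHcy, and among those over 1000 and up to 2000 bp the shares were 6.77% of 591 and 13.5% of 2917. For KHcy peaks over 1000 and up to 2000 bp, 5.73% of 471 far and 10.2% of 3465 near peaks overlapped H3K79Hcy. On the chromosomes with at least 50 far peaks of the library, far overlap was below near overlap on 8 of 8 for H3K79Hcy with KHcy, 7 of 8 for H3K79Hcy with H3K4me3, and 7 of 7 for KHcy with either.

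**Figure D5:**
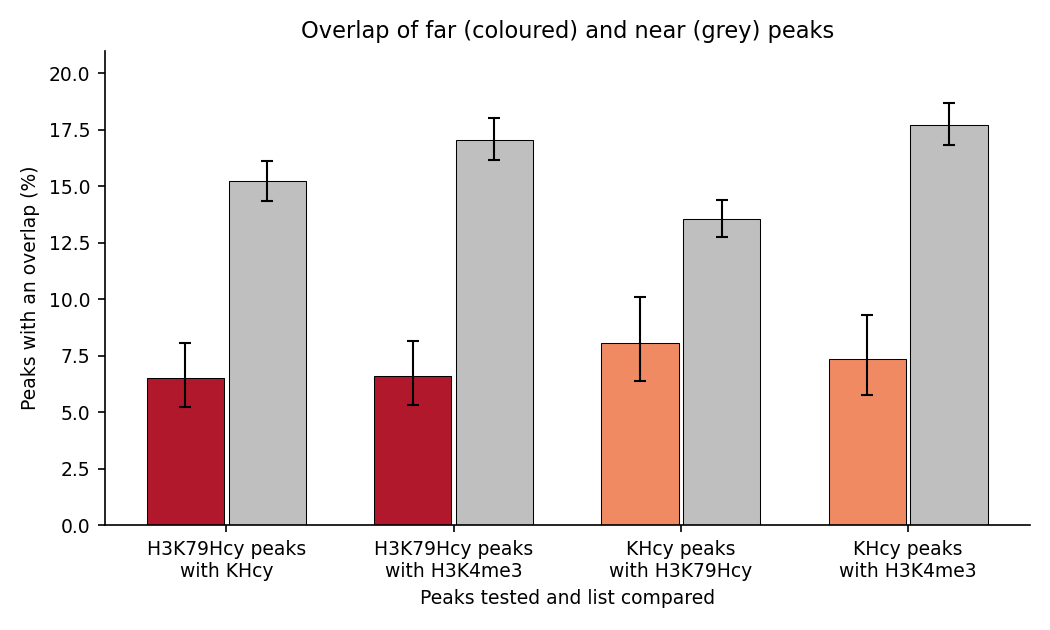
Share of far (coloured) and near (grey) peaks of a homocysteinylation library that overlap a peak of another list by at least 1 bp; error bars are 95% Wilson intervals, which cover counting error only. Far shares lie between 6.52 and 8.06%, and near shares between 13.6 and 17.7%.

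Peaks of both other lists were overlapped by 27 far H3K79Hcy peaks (2.32%, near 8.35%, all 7.39%), spread over 16 deserts, and by 23 far KHcy peaks (2.73%, near 7.34%, all 6.81%), also in 16 deserts. Among the 5 such H3K79Hcy peaks with the most reads, 3 lay close together at the start of chromosome 16, from 323 to 348 kb ahead of Olfr161: chr16:3241601-3244600 and chr16:3252401-3255000 with 79 reads each and chr16:3267601-3269800 with 55 reads, at 3.31, 3.82 and 3.14-fold. No overlap with another list was seen for 1040 far H3K79Hcy peaks (89.2%, near 76.1%, all 78.1%) and 737 far KHcy peaks (87.3%, near 76.1%, all 77.4%). Far peaks that did overlap another list passed the stricter score more often: 51.3% of the H3K79Hcy peaks at KHcy peaks against 26.1% of the others, and 54.4% of the KHcy peaks at H3K79Hcy peaks against 31.3%.

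Distances between the marks within a desert were taken over all far peaks, counting an overlap as 0. The nearest KHcy peak in the desert of a far H3K79Hcy peak was a median of 45.9 kb away (quartiles 10.4 and 145.8 kb, 1078 peaks), and the nearest peak of H3K79Hcy itself 35.6 kb away. From a far KHcy peak the nearest H3K79Hcy peak was a median of 31.2 kb away and the nearest KHcy peak 43.6 kb. Only 22.9% of the far H3K79Hcy peaks had a KHcy peak within 10 kb. Far H3K4me3 peaks, by comparison, were a median of 3.00 kb from each other, and 66.1% had another within 10 kb. Of the 194 deserts that held both homocysteinylation marks, 51 (26.3%) contained an overlapping pair.

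Transcripts without coding potential accounted for few of the far peaks. A noncoding gene, pseudogene or immunoglobulin segment of the annotation was overlapped by 20 far H3K79Hcy peaks (1.72%, 1.11 to 2.63%) and 31 far KHcy peaks (3.67%, 2.6 to 5.17%). These features took up 2.40% of the bases of the desert sequence. A peak that only touches a feature is counted, so the shares of peaks and of bases are unlike measures. Gm12132, a noncoding transcript in the desert between Odz2 and Mat2b, held 2 H3K79Hcy and 4 KHcy far peaks. 1700060C16Rik, near Sox5, held 3 and 2, and Gm13481, in the desert between Zeb2 and Acvr2a, held 2 and 3. The long intergenic transcript Gm16742 held 4 KHcy far peaks and no H3K79Hcy far peak.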

How the data were processed

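ChIP-seq peak lists of 3 libraries were used, with 1 library per antibody. By the study's methods the authors aligned reads to mm9 with Bowtie 2 and called peaks with MACS, filtered through control input. The submitters' processing notes name MACS 1.4.2, whereas a figure legend names SICER. The deposited lists of H3K4me3 (19339 peaks) and H3K79Hcy (7387 peaks) are longer than the study reports, by a wide margin for H3K4me3. The reason is not given in the sources used here. For each peak the authors deposited its coordinates, its width and a read count without any depth normalization. A deposited score follows minus the natural logarithm of a Poisson probability wherever a peak is 1 window wide. The background of each library was solved from these scores (27, 8 and 14 peaks for H3K79Hcy, KHcy and H3K4me3), and fold is reads per 200 bp over it. Peak lists from a single library carry no replicate error, the total reads are not given in the sources used here, and reads amplified by PCR are not independent molecules.

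Positions count from 1. Genes came from GENCODE M1 and sequence from NCBIM37, and no peak ended past a chromosome end. Distances, deserts and overlaps (at least 1 bp) were computed with Python 3.11.15, numpy 2.4.6, pandas 2.3.3 and numba 0.67.0, intervals with scipy 1.17.1 (Wilson for shares, exact binomial for medians) and figures with matplotlib 3.10.9. The functions were tested on simulated data, where 0 of 6000 distances, desert calls or overlaps differed from a direct count. Lengths left out assembly gaps. Words of 31 bases were counted on both strands.

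Named were the 5 deserts with the most far homocysteinylation peaks, the 3 with the most of each mark and the longest. In each library the 3 far peaks of largest fold, the 3 widest and the farthest were selected, and of the far H3K79Hcy peaks overlapping both other lists the 5 with the most reads, with the flanking genes and 7 gene lists by symbol. Of what these rules chose, 1 place and 1 gene are not reported here. Far peaks over 5-fold and 4 further deserts were named after their values were seen. The members and lists were chosen with earlier results of these data known. The alternatives were other scores, distances, gene sets, chromosomes, overlap rules and merged peaks. Input, IgG and HTL-treated libraries are not analysed here.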

Additional observations from a re-analysis of the deposited data

How the results depend on the processing

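No paired analysis was possible because there is 1 library per antibody, with no replicate to leave out. Of 161 values recomputed under other settings, 89 stayed within the interval of the value reported, or within 1.5 times it for numbers of deserts. Values below are in the order H3K79Hcy, KHcy and H3K4me3 where not named. In each setting compared, with chromosomes pooled, the far density stayed below that elsewhere, and far overlap stayed below near overlap in the 4 homocysteinylation pairs.

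With a distance over 100 kb, far shares were 25.2, 19.4 and 17.1%, density ratios 0.887, 0.633 and 0.544, and deserts holding far peaks 433, 390 and 498. Over 500 kb they were 5.31, 3.84 and 2.24%, 0.681, 0.484 and 0.278, and 84, 74 and 66; the KHcy width was 1900 bp, and overlaps were 5.10% for H3K79Hcy with KHcy, 2.81% for H3K79Hcy and 3.93% for KHcy with H3K4me3, and 2.54% for H3K4me3 with H3K79Hcy. With every annotated gene used, far shares were 6.39, 4.41 and 3.62% in 157, 135 and 129 deserts, H3K79Hcy had 4.25 reads per 200 bp, and overlaps were 4.45 and 4.03% for H3K79Hcy with KHcy and H3K4me3, 5.59 and 5.59% for KHcy with H3K79Hcy and H3K4me3, and 2.57% for H3K4me3 with H3K79Hcy. With the stricter score, H3K79Hcy and KHcy had far shares of 14.1 and 9.36%, ratios of 0.716 and 0.449, 139 and 129 deserts, widths of 1400 and 2400 bp and 4.16 and 3.36 reads per 200 bp, and overlaps were 8.64 and 9.26% for H3K79Hcy with KHcy and H3K4me3, 10.4% for KHcy with H3K4me3, and 2.36 and 2.45% for H3K4me3 with H3K79Hcy and KHcy.

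With peaks deep inside long genes counted, far shares were 18.2, 13.3 and 11.6%. With assembly gaps included, ratios were 0.695, 0.485 and 0.382. Without chromosome 1, far shares were 10.7% for KHcy and 8.93% for H3K4me3. With peaks within 3000 bp merged, H3K4me3 had a far share of 8.02%, a ratio of 0.379 and overlaps of 5.34 and 5.25% with H3K79Hcy and KHcy, the former above its near share of 5.16%. With an overlap of at least 50%, shares were 4.89% for H3K79Hcy with KHcy, 3.79 and 5.33% for KHcy with H3K79Hcy and H3K4me3, and 1.72 and 2.33% for H3K4me3 with them. Within 1000 bp they were 8.92 and 8.92% for H3K79Hcy with KHcy and H3K4me3, 10.9% for KHcy with H3K79Hcy and 5.54% for H3K4me3 with H3K79Hcy. Among KHcy peaks of 1000 to 2000 bp, a setting added after the data were seen, 5.88% overlapped H3K79Hcy. The causes were not tested.

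Usual far peaks held 20 to 36 reads, so a weak peak can fall on either side of the score that listed it, and a missing overlap does not show that the other mark is absent.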
